A study of Mus musculus with 44 samples.

Results

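A series of enzymes and helper proteins modifies, folds, exports, trims and crosslinks collagen. Of this series, 33 genes form the group of collagen processing and crosslinking enzymes. They were the rows of the count table that carried the symbols of prolyl and lysyl hydroxylases, prolyl 3-hydroxylases, glycosyltransferases, chaperones, export factors, procollagen proteinases with their enhancers, and lysyl oxidases. All 33 were found among the 55486 genes of the table, and all 33 passed the filter on low counts. The rule that picks them uses gene names, and no measured value enters it, but the group was proposed with earlier results of these data known.

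The study sequenced mRNA of mammary fibroblasts from En1-Cre;mTmG mice, in which Cre driven from the En1 locus switches a membrane reporter from tdTomato to GFP in cells of the En1 lineage. Fibroblasts were EpCAM-/CD49f-/CD31-/CD45- cells, sorted by surface CD26 and by GFP into En1+ (CD26-), double- (CD26-), CD26+ and double+ populations. The comparisons asked how normal fibroblasts (NFs) of the 2 CD26 classes differed from cancer-associated fibroblasts (CAFs). The 44 libraries came from 3 control mice, 5 mice with WB1P tumors and 5 mice with WB1P-Myc tumors. All recipients were En1-Cre;mTmG mice of about 3 weeks at transplantation, and their own fat pads were left in place. WB1P donor tissue was WapCre;Brca1F/F;Trp53F/F, in which Cre from the whey acidic protein promoter removes both tumor suppressors in mammary epithelium. WB1P-Myc donor tissue also carried the Cre-inducible Col1a1invCAG-Myc-IRES-Luc allele. The labels call the control libraries wildtype, and the study describes these mice as control transplanted. As control donor tissue for such recipients it names Cdh1F/F;PtenF/F tissue without WapCre, but not expressly for the sequenced mice. With that tissue, control and tumor donors differed in their floxed alleles as well as in Cre. Tumors were end-stage, except that the labels marked 2 WB1P-Myc mice 8x8. Each control label with a pair of animal numbers was counted as 1 mouse, as the study counts its control animals.

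Prolyl 4-hydroxylases stabilise the collagen triple helix, and lysyl hydroxylases prepare the lysines that later carry sugars and crosslinks. Procollagen is folded with the help of chaperones such as Serpinh1, leaves the endoplasmic reticulum in large carriers, and loses its propeptides to Adamts and Bmp1 proteinases. Lysyl oxidases then oxidise lysine and hydroxylysine side chains outside the cell, which crosslinks fibrils and stiffens the matrix, a step well known in mammary tumors.

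Libraries held 5790599 to 15240328 counts on genes, with a median of 12818093. Counts were summed per mouse and CD26 class, which gave 10 CD26- and 9 CD26+ CAF samples and 3 NF samples of each class. Not every sum held both En1 populations of its class. The CD26- sum was En1+ cells alone in WB1P replicate 4 and double- cells alone in WB1P-Myc replicates 9 and 11. The CD26+ sum was double+ cells alone in WB1P replicate 6 and WB1P-Myc replicates 10 and 11. All other sums, those of the controls included, held both. The CD26+ sum of WB1P replicate 6 was the smallest library, with 5790599 counts. Levels are given as CPM, counts relative to the TMM-scaled library size. Changes were tested with edgeR's quasi-likelihood test over 16601 genes, and a gene was called at an adjusted p under 0.05. Dpp4, which encodes CD26, had 6.41 ± 4.26 CPM (SD, n = 10) in CD26- CAFs and 414 ± 125 CPM (SD, n = 9) in CD26+ CAFs. All 8 fibroblast markers were found in every group. Against NFs of their class, 1 of the 8 rose and 3 fell in CD26- CAFs, and 2 rose and 2 fell in CD26+ CAFs. Between the CAF classes, 4 were higher and 1 was lower in CD26+ cells. Markers of pericytes and smooth muscle moved with the CD26- CAFs: 9 of 9 rose there against CD26- NFs, and their summed level was 218 to 416 CPM in the CD26- NFs, 174 to 194 CPM in the CD26+ NFs, 1949 to 9614 CPM in the CD26- CAFs and 157 to 395 CPM in the CD26+ CAFs. Higd1b, one of these 9, had 3 counts or fewer in every library of both NF classes. Of 6 proliferation markers, 6 rose in both CAF classes. Summed endothelial markers were 35.4 to 56.5 CPM in CD26- and 183 to 516 CPM in CD26+ NFs, and 16.2 to 73.9 CPM in CD26- and 72.6 to 194 CPM in CD26+ CAFs, with 4 of 6 lower in CAFs in both classes and 1 higher in CD26- CAFs. Summed immune markers were 12.2 to 28.3 CPM in NFs, 7.05 to 37.7 CPM in CD26- CAFs and 15.1 to 226 CPM in CD26+ CAFs, and between the CAF classes 1 of 7 was higher and 5 were lower in CD26+ cells. Sums reached at most 187 CPM for epithelial, 50.4 CPM for Schwann and 11.0 CPM for adipocyte markers, and in CD26+ CAFs 3 of 4 Schwann and 3 of 3 adipocyte markers were lower than in CD26- CAFs. The part of all these markers in the results was not tested, and in such bulk samples fewer cells of a type cannot be told apart from less RNA per cell. Without TMM, scaling on library totals shifted the median log2 fold change of all genes to -0.137 in CD26+ CAFs against NFs, to -0.136 in CD26+ against CD26- CAFs and to 0.175 in WB1P-Myc against WB1P CD26- CAFs. The share of called genes that were higher was then 34.2%, 29.6% and 72.3%, in place of 48.8%, 49.0% and 40.2%.

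In CD26- CAFs against CD26- NFs, 16 of the 33 members rose and 1 fell, where 20.3% and 20.9% of all genes did. The median log2 fold change of the members was 0.50, and that of all genes 0.014. Of the members that rose, 3 passed the log2 fold change of 2 that the study used as its limit (6.87% of all genes): P4ha3, P3h2 and Loxl3. In CD26+ CAFs against CD26+ NFs, 22 members rose and none fell, where 20.1% and 21.1% of all genes did. The median was 0.73 for the members and -0.002 for all genes, and P4ha3 and Lox passed the limit of 2 (4.23% of all genes). The 10 CD26- CAF samples lay without overlap above the 3 NF samples for 10 members (12.7% of all genes), and the 9 CD26+ CAF samples for 17 members (13.2% of all genes). No member lay below the NFs without overlap in either class, as 12.4% and 12.0% of all genes did. Both comparisons used different NF samples but the same 3 control mice.

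**Figure D1:**
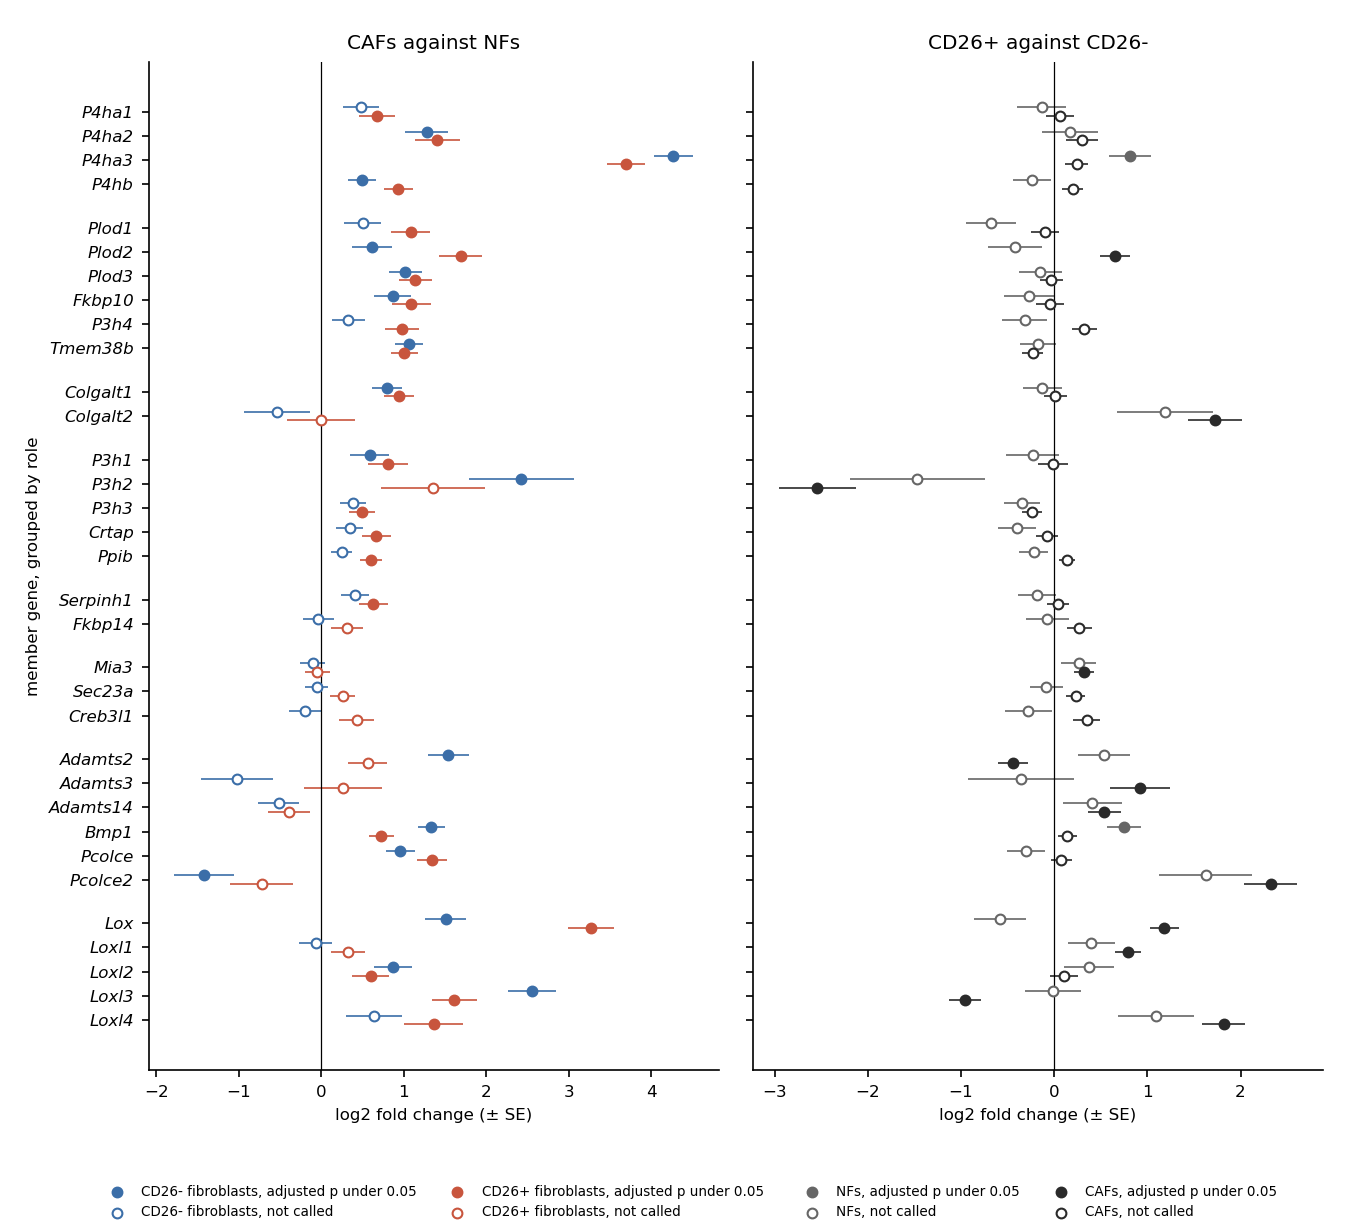
The log2 fold change with its standard error (x axis) of each of the 33 members (y axis, grouped by role), on the left for CAFs against NFs in CD26- (blue) and CD26+ (red) fibroblasts, on the right for CD26+ against CD26- in NFs (grey) and CAFs (black), with filled points at an adjusted p under 0.05. P4ha3 lay farthest to the right in CAFs against NFs at 4.27 and 3.69, Pcolce2 was the single member called lower there, and on the right Pcolce2 and P3h2 stood at the ends at 2.32 and -2.54.

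Of the 4 prolyl 4-hydroxylase genes, 3 rose in CD26- CAFs and 4 in CD26+ CAFs. P4ha1, P4ha2 and P4ha3 encode alternative catalytic alpha subunits, and P4hb the shared beta subunit, protein disulfide isomerase. The sequences upstream of the 3 alpha subunit genes are shown because their products do the same step and the genes changed by very unequal amounts. They are the 250 bases before the RefSeq start site on GRCm38.p6, with ACGTG and GCGTG and their reverse complements CACGT and CACGC in capitals. These are core letters of the sites that hypoxia-inducible factors bind, and ACGTG is also part of the E-box CACGTG. The windows lie at chr10:59323046-59323295 for P4ha1, chr11:54100674-54100923 for P4ha2 and chr7:100285270-100285519 for P4ha3, all on the + strand.
P4ha1: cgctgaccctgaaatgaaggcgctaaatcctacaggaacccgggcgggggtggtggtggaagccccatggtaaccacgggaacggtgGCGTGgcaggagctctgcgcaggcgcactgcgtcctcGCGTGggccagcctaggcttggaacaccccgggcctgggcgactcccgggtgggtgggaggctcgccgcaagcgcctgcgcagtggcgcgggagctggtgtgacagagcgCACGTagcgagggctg
P4ha2: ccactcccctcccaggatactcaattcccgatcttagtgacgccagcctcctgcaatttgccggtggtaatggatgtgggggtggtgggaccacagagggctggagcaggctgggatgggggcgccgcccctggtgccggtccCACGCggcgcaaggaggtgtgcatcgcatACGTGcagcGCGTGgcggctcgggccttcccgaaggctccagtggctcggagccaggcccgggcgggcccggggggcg
P4ha3: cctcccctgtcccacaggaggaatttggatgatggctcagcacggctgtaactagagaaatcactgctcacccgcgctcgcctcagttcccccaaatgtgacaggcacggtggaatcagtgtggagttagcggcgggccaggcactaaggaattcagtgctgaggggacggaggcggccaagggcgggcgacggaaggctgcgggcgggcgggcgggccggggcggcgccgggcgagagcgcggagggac
The letters occurred 3 times before P4ha1, 3 times before P4ha2 and not at all before P4ha3. Among the 32851 RefSeq promoters, 16.6% held ACGTG and 28.2% held GCGTG on either strand within these 250 bases, and 38.6% held one or the other. Of the members, 21 had a promoter in the table and 16 of them held one or the other. Counted as promoters, as the 38.6% is, 18 of their 24 did. The other members, among them Lox, Plod2, Loxl3 and Bmp1, had no promoter there. The start site of P4ha2 in RefSeq lay at 54100924, downstream of the start of the gene in the GENCODE annotation at 54100095. The matches are letters in a window and were tested against no binding data.

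P4ha3 (chromosome 7, 100285520 to 100319699, + strand) was the member with the largest change. CD26- NFs of the 3 control mice had 9.75, 16.4 and 11.2 CPM, and CD26- CAFs had 145 CPM at the lowest, 250 CPM at the median and 376 CPM at the highest. The corresponding values were 25.9, 13.8 and 26.1 CPM in CD26+ NFs and 237, 284 and 323 CPM in CD26+ CAFs. Every CAF sample thus lay far above every NF sample in both classes, and the CD26+ CAFs of the 9 mice were close together. The log2 fold change was 4.27 ± 0.24 (SE, adjusted p = 9.52e-11) in CD26- and 3.69 ± 0.23 (SE, adjusted p = 6.9e-10) in CD26+ fibroblasts. The ratio of the means was 19.6 and 12.9.

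P4ha2 (chromosome 11, 54100095 to 54131665, + strand) also rose in both classes, by much less. The controls had 97.2, 97.1 and 78.4 CPM in CD26- and 120, 86.2 and 101 CPM in CD26+ NFs. CD26- CAFs ranged from 107 CPM over a median of 248 CPM to 359 CPM, and CD26+ CAFs from 163 CPM over 263 CPM to 422 CPM. The groups did not overlap in either class, although the lowest CD26- CAF sample was near the highest NF sample. The log2 fold change was 1.28 ± 0.27 (SE, adjusted p = 0.000661) in CD26- and 1.41 ± 0.27 (SE, adjusted p = 0.000414) in CD26+ fibroblasts. P4hb rose in both classes, by 0.49 ± 0.17 (SE, adjusted p = 0.0243) and 0.93 ± 0.18 (SE, adjusted p = 0.000369) on the log2 scale. P4ha1 rose in CD26+ CAFs, with 0.68 ± 0.22 (SE, adjusted p = 0.0195), and its log2 fold change in CD26- CAFs was 0.48 ± 0.22 (SE, adjusted p = 0.0799). Both P4hb in CD26- CAFs and P4ha1 in CD26+ CAFs lost their call when control mouse 2 or 3 was left out, with adjusted p of up to 0.095 for P4hb and 0.12 for P4ha1. P4hb in CD26- CAFs also lost it without both 8x8 mice (0.42, adjusted p = 0.0601).

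Because genes differ in length, the 3 alpha subunits were compared as CPM per kilobase of merged exon. P4ha1 made up 77.8% ± 1.27 (SD, n = 3) of their sum in CD26- NFs and 44.7% ± 4.63 (SD, n = 10) in CD26- CAFs. The share of P4ha3 was 4.76% ± 1.21 (SD, n = 3) in CD26- NFs and 37.9% ± 5.08 (SD, n = 10) in CD26- CAFs. In CD26+ fibroblasts it was 8.41% ± 1.89 (SD, n = 3) in NFs and 40.6% ± 6.25 (SD, n = 9) in CAFs. The lowest share of P4ha3 in any CAF sample was 32.0%, and the highest in any NF sample 10.5%. The share of P4ha2 had means of 17.4% to 20.1% over the 4 groups.

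**Figure D2:**
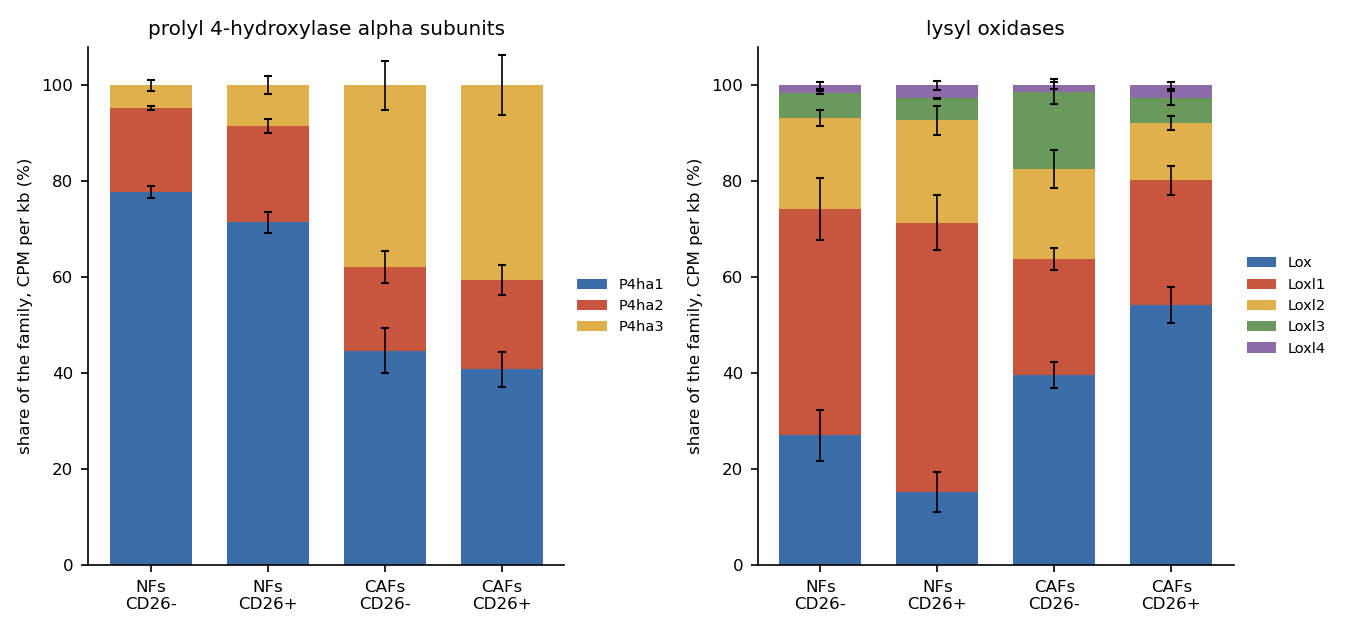
Share of each gene in the summed level of its family (y axis, percent of CPM per kilobase, mean with SD) in NFs (3 mice per class) and in CD26- (10 mice) and CD26+ CAFs (9 mice), for the prolyl 4-hydroxylase alpha subunits and the lysyl oxidases. The P4ha3 segment was 4.76% and 8.41% in NFs and 37.9% and 40.6% in CAFs, and the Lox segment was 27.0% and 15.2% in NFs and 39.6% and 54.3% in CAFs.

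Of the 6 lysyl hydroxylase genes and partners, 4 rose in CD26- CAFs (Plod2, Plod3, Fkbp10 and Tmem38b) and all 6 in CD26+ CAFs. Plod1, Plod2 and Plod3 hydroxylate lysines, Plod2 those of the telopeptides, while the foldase Fkbp10, the endoplasmic reticulum protein P3h4 and the ion channel Tmem38b are needed for this reaction. Their log2 fold changes were 0.33 to 1.06 in CD26- and 0.97 to 1.69 in CD26+ fibroblasts. Plod2 (chromosome 9, 92542223 to 92608428, + strand) had 237, 136 and 188 CPM in CD26- NFs and 192, 95.3 and 132 CPM in CD26+ NFs. Its lowest, median and highest values were 233, 278 and 379 CPM in CD26- CAFs and 231, 447 and 643 CPM in CD26+ CAFs. The groups overlapped slightly in CD26- fibroblasts and not in CD26+ fibroblasts. Plod2 rose by 1.69 ± 0.26 (SE, adjusted p = 5.22e-05) on the log2 scale in CD26+ CAFs and by 0.61 ± 0.24 (SE, adjusted p = 0.0459) in CD26- CAFs, where the call was lost under 12 of 19 alternatives. An opposite-strand gene, Gm38391, shares 346 exon bases with Plod2, and the sources did not say whether counting used strand.

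Within mice, Plod2 was higher in CD26+ than in CD26- cells in 8 of 9 CAF mice and in none of the 3 control mice. The log2 difference of CD26+ from CD26- was 0.66 ± 0.16 (SE, adjusted p = 0.0026) in CAFs and -0.42 ± 0.29 (SE, adjusted p = 0.625) in NFs. The difference between these was 1.08 ± 0.33 (SE, adjusted p = 0.103), 1.05 (adjusted p = 0.028) with mouse as a replicate block and 1.07 (adjusted p = 0.0405) with DESeq2's Wald test.

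Of the glycosyltransferases, which add galactose to hydroxylysine, Colgalt1 rose in both CAF classes, by 0.80 ± 0.18 (SE, adjusted p = 0.00141) and 0.94 ± 0.19 (SE, adjusted p = 0.000499) on the log2 scale. Colgalt2 (chromosome 1, 152399830 to 152510695, + strand) was low in level and followed CD26 instead. The 3 NF samples had 2.25, 5.19 and 2.22 CPM in CD26- and 3.57, 10.4 and 8.02 CPM in CD26+ cells. CD26- CAFs ranged from 0.868 CPM over a median of 2.44 CPM to 3.48 CPM, and CD26+ CAFs from 2.09 CPM over 7.46 CPM to 11.2 CPM. The groups overlapped between mice, but CD26+ cells were higher in 9 of 9 CAF mice, by 2.15 to 4.78 times, and in 3 of 3 control mice, by 1.59 to 3.61 times. The log2 difference was 1.73 ± 0.295 (SE, adjusted p = 7.11e-05) in CAFs. In NFs it was 1.19 ± 0.51 (SE, adjusted p = 0.264), and 1.18 (adjusted p = 0.00688) with mouse as a replicate block.

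The prolyl 3-hydroxylase family is named for the modification of a few prolines, and the partners Crtap and Ppib (cyclophilin B) were grouped with it. P3h1 rose in both CAF classes and P3h3, Crtap and Ppib in CD26+ CAFs, all by less than 1 on the log2 scale. The call of P3h1 in CD26- CAFs (0.59 ± 0.24 SE, adjusted p = 0.0489) was lost under 14 of 19 alternatives, that in CD26+ CAFs without control mouse 2 (adjusted p = 0.075), and that of P3h3 without control mouse 2 or 3 (adjusted p up to 0.123). P3h2 (chromosome 16, 25959288 to 26105784, - strand), whose product is known to act on collagen IV of basement membranes, was the exception in size. It had 1.27, 3.29 and 3.35 CPM in CD26- NFs and 6.41, 9.95 and 35.7 CPM as the lowest, median and highest values in CD26- CAFs. In CD26+ cells the NFs had 0.990, 0.718 and 1.13 CPM and the CAFs 0.605, 1.63 and 5.62 CPM. All CD26- CAF samples lay above all NF samples and above all CD26+ CAF samples.

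P3h2 rose in CD26- CAFs by 2.43 ± 0.64 (SE, adjusted p = 0.00441) on the log2 scale, and its change in CD26+ CAFs was 1.35 ± 0.63 (SE, adjusted p = 0.0914). It was lower in CD26+ than in CD26- CAFs by -2.54 ± 0.41 (SE, adjusted p = 3.94e-05), in 9 of 9 mice. In NFs it was lower in 3 of 3 mice, at -1.47 ± 0.72 (SE, adjusted p = 0.37). The mouse with the highest P3h2 in CD26- CAFs, WB1P-Myc replicate 9 with 35.7 CPM, also had the highest sum of pericyte and smooth muscle markers, 9614 CPM. WB1P-Myc replicate 11 with 21.8 CPM and WB1P replicate 4 with 20.9 CPM had marker sums of 4503 and 5482 CPM. The other 7 mice had 6.41 to 13.9 CPM of P3h2 with marker sums of 1949 to 4404 CPM. In CD26- cells, replicates 9 and 11 had double- cells alone and replicate 4 had En1+ cells alone, while the other 7 mice had both. The part of these markers and of the populations sequenced in the result was not tested. An antisense gene, Gm4524, shares 1055 exon bases with P3h2.

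Among chaperones and foldases, Serpinh1, the collagen-specific chaperone Hsp47, was the most abundant member in every group, with 647 CPM per kilobase in CD26- NFs and 862 CPM per kilobase in CD26- CAFs. It rose in CD26+ CAFs by 0.63 ± 0.18 (SE, adjusted p = 0.00659) on the log2 scale, a call that was lost without control mouse 2 (adjusted p = 0.0569). Fkbp14, a foldase, was not called in either CAF class, with -0.04 and 0.31. The 3 export genes were not called either. Mia3 (TANGO1, which loads procollagen into carriers), Sec23a (a coat protein of these carriers) and Creb3l1 (OASIS, a transcription factor of the secretory pathway) had log2 fold changes of -0.195 to -0.056 in CD26- and -0.046 to 0.428 in CD26+ fibroblasts. Mia3 was higher in CD26+ than in CD26- CAFs by 0.32 ± 0.10 (SE, adjusted p = 0.0185), but was not called when WB1P replicate 5, WB1P replicate 8, WB1P-Myc replicate 9 or both 8x8 mice were left out, or without the filter on low counts. On library totals Mia3 had 0.17 (adjusted p = 0.127). With mouse as a replicate block Creb3l1 (0.37, adjusted p = 0.00373), Fkbp14 (0.29, adjusted p = 0.0214), P3h4 (0.32, adjusted p = 0.00818) and Sec23a (0.22, adjusted p = 0.046) were also called higher in CD26+ CAFs, and P3h3 lower (-0.22, adjusted p = 0.026).

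Of the 6 procollagen proteinases and enhancers, 3 rose and 1 fell in CD26- CAFs, and 2 rose in CD26+ CAFs. Adamts2, Adamts3 and Adamts14 remove amino propeptides, and Bmp1 removes carboxy propeptides with the help of the enhancers Pcolce and Pcolce2. Bmp1 (chromosome 14, 70474558 to 70520234, - strand) had 515, 485 and 490 CPM in CD26- NFs and 810, 894 and 802 CPM in CD26+ NFs. In CAFs its lowest, median and highest values were 889, 1278 and 1656 CPM in CD26- and 1032, 1389 and 1775 CPM in CD26+ cells. The CD26+ NFs thus lay above the CD26- NFs without overlap, while the 2 classes of CAFs overlapped widely. Bmp1 rose by 1.34 ± 0.16 (SE, adjusted p = 1.4e-06) on the log2 scale in CD26- CAFs and by 0.73 ± 0.15 (SE, adjusted p = 0.000937) in CD26+ CAFs. CD26+ exceeded CD26- NFs by 0.75 ± 0.18 (SE, adjusted p = 0.0175), and in CAFs the difference was 0.14 ± 0.10 (SE, adjusted p = 0.289). The difference between these was -0.61 ± 0.21 (SE, adjusted p = 0.148), and -0.62 (adjusted p = 0.042) with DESeq2's Wald test. The call in NFs was lost when any of the 3 control mice was left out, with the highest adjusted p at 0.208.

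Adamts2 (chromosome 11, 50602084 to 50807573, + strand) rose in CD26- CAFs. The controls had 557, 637 and 542 CPM in CD26- and 802, 740 and 971 CPM in CD26+ NFs. CD26- CAFs ranged from 956 CPM over 1721 CPM to 2673 CPM, and CD26+ CAFs from 882 CPM over 1262 CPM to 1494 CPM. CAFs and NFs were separate in CD26- and overlapped in CD26+ cells. The log2 fold change was 1.54 ± 0.25 (SE, adjusted p = 5.09e-05) in CD26- and 0.56 ± 0.24 (SE, adjusted p = 0.0594) in CD26+ fibroblasts. In CAFs the CD26+ cells were lower by -0.44 ± 0.16 (SE, adjusted p = 0.031), in 7 of 9 mice, a call lost without WB1P replicate 6 and without WB1P-Myc replicate 10 or 12 (adjusted p up to 0.0822) or both 8x8 mice (-0.34, adjusted p = 0.101). The summed pericyte and smooth muscle markers given above were higher in the same CD26- CAFs, and their part in the result was not tested. Adamts2 made up 75.5% ± 6.74 (SD, n = 3) of the summed level of the 3 amino propeptidases per kilobase in CD26- NFs and 92.7% ± 1.72 (SD, n = 10) in CD26- CAFs.

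Adamts3 (chromosome 5, 89677087 to 89883334, - strand) was low in level. It had 20.4, 7.23 and 12.5 CPM in CD26- NFs and 19.9, 3.14 and 8.37 CPM in CD26+ NFs. The CAFs had 2.64, 7.51 and 9.87 CPM as lowest, median and highest in CD26- cells and 5.07, 12.5 and 25.8 CPM in CD26+ cells. NF samples spread as widely as the CAFs, and the groups overlapped throughout. CD26+ exceeded CD26- CAFs in 9 of 9 mice, by 0.92 ± 0.33 (SE, adjusted p = 0.0281) on the log2 scale. The call was lost without WB1P-Myc replicate 12 or WB1P replicate 8, with adjusted p of up to 0.118, without both 8x8 mice (adjusted p = 0.154), on library totals (adjusted p = 0.0588) and without the filter on low counts (adjusted p = 0.06). Adamts14 was higher in CD26+ CAFs by 0.54 ± 0.18 (SE, adjusted p = 0.0202), a call lost without WB1P replicate 5 or WB1P-Myc replicate 9 and on library totals (0.39, adjusted p = 0.0572).

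Pcolce rose in both CAF classes, by 0.96 ± 0.18 (SE, adjusted p = 0.000202) and 1.34 ± 0.18 (SE, adjusted p = 1.27e-05) on the log2 scale. Pcolce2 (chromosome 9, 95637601 to 95698096, + strand) went the other way and was the single member that fell in CAFs. CD26- NFs had 64.2, 261 and 66.0 CPM, and CD26- CAFs 26.4, 44.8 and 85.4 CPM as lowest, median and highest. In CD26+ cells the NFs had 243, 600 and 365 CPM and the CAFs 147, 268 and 297 CPM. Control mouse 2 was far above the other 2 in both classes, and CAFs overlapped the NFs. The log2 fold change was -1.42 ± 0.36 (SE, adjusted p = 0.0038) in CD26- and -0.72 ± 0.38 (SE, adjusted p = 0.137) in CD26+ fibroblasts. Without control mouse 2 the former was -0.393 (adjusted p = 0.409), so that the call rested on that mouse.

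The difference of Pcolce2 between the CD26 classes did not rest on 1 mouse. CD26+ CAFs lay above CD26- CAFs without overlap, and the ratio within the 9 mice was 3.15 to 9.46. The log2 difference was 2.32 ± 0.28 (SE, adjusted p = 1.06e-06) in CAFs. In NFs the ratio was 2.29 to 5.54 in the 3 mice, with a log2 difference of 1.63 ± 0.50 (SE, adjusted p = 0.0711), and of 1.86 (adjusted p = 0.000911) with mouse as a replicate block. Of the summed level of Pcolce and Pcolce2 per kilobase, Pcolce2 held 41.5% ± 10.5 (SD, n = 3) in CD26+ NFs and 15.4% ± 2.90 (SD, n = 9) in CD26+ CAFs.

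Of the 5 lysyl oxidases, 3 rose in CD26- CAFs (Lox, Loxl2 and Loxl3) and 4 in CD26+ CAFs (the same 3 and Loxl4), while Loxl1 was not called in either. The call of Loxl2 in CD26+ CAFs, 0.60 ± 0.23 (SE, adjusted p = 0.0377), was lost under 8 of 19 alternatives. Loxl1 was higher in CD26+ than in CD26- CAFs by 0.79 ± 0.14 (SE, adjusted p = 0.000106), without overlap between the classes. Lox had 579, 554 and 666 CPM in CD26- NFs and 478, 243 and 483 CPM in CD26+ NFs. Its lowest, median and highest values were 870, 1784 and 2419 CPM in CD26- CAFs and 2906, 3918 and 5120 CPM in CD26+ CAFs. No 2 of these 4 groups overlapped, with CD26+ the lower class in NFs and the higher class in CAFs. Lox rose by 1.51 ± 0.25 (SE, adjusted p = 5.76e-05) on the log2 scale in CD26- CAFs and by 3.27 ± 0.28 (SE, adjusted p = 7.85e-08) in CD26+ CAFs, where the ratio of the means was 9.60. Between CD26 classes, the log2 difference was 1.18 ± 0.16 (SE, adjusted p = 3.13e-06) in CAFs, positive in 9 of 9 mice, and -0.58 ± 0.28 (SE, adjusted p = 0.354) in NFs, negative in 3 of 3 mice. The pericyte and smooth muscle markers were higher in the CD26- CAFs, highest in WB1P-Myc replicate 9 (9614 CPM). That mouse had the lowest Lox in CD26- CAFs, 870 CPM. Its ratio of CD26+ to CD26- Lox was the largest, 4.50 against a median of 2.11. The part of these markers in the higher CD26+ levels of Lox, Loxl1, Loxl4 and Plod2 was not tested. An opposite-strand gene, AC161119.1, shares exon bases with Lox.

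For Lox, the CD26 difference in CAFs minus that in NFs was 1.76 ± 0.32 (SE, adjusted p = 0.00393). Lox was the one member called in this test of interaction (2.06% of all genes). With mouse as a replicate block 4 members were called, where 992 of 16601 genes were. These were Lox, Plod2, Creb3l1 (0.67, adjusted p = 0.0419) and P3h4 (0.65, adjusted p = 0.0414). Lox held 27.0% ± 5.34 (SD, n = 3) of the summed lysyl oxidase level per kilobase in CD26- NFs and 39.6% ± 2.64 (SD, n = 10) in CD26- CAFs. In CD26+ cells the share was 15.2% ± 4.13 (SD, n = 3) in NFs and 54.3% ± 3.75 (SD, n = 9) in CAFs. The share of Loxl1 was the largest in both NF classes, at 47.2% and 56.2%, and was 24.3% and 26.0% in the CAF classes.

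**Figure D3:**
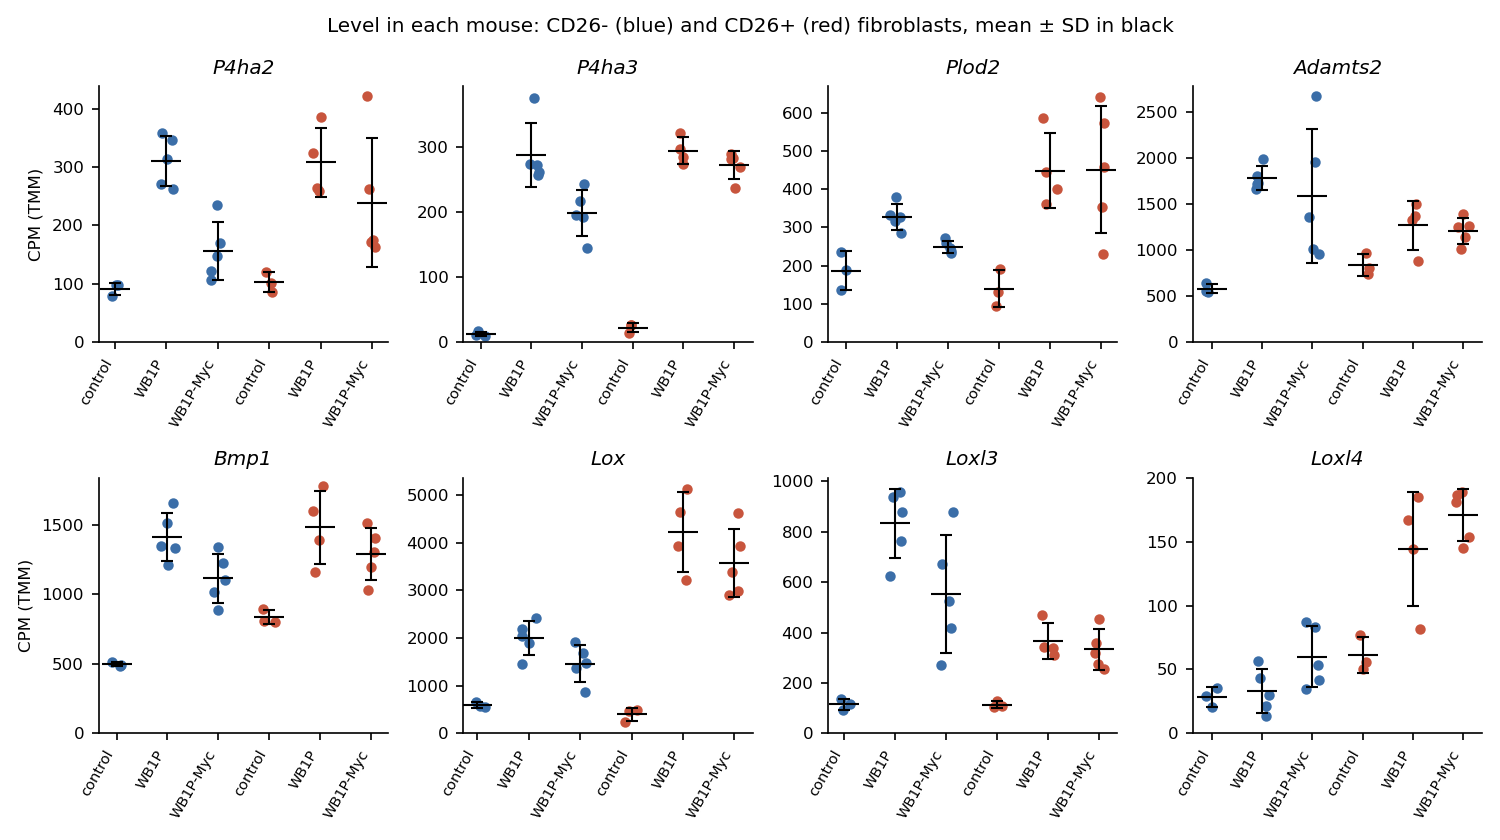
Level of 8 members in each mouse (y axis, CPM with TMM scaling) in control, WB1P and WB1P-Myc mice, with CD26- samples in blue, CD26+ samples in red, and the mean with SD in black. P4ha3 reached 376 CPM in CAFs and at most 26.1 CPM in NFs, and Lox was highest in CD26+ CAFs with 2906 to 5120 CPM.

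Loxl3 (chromosome 6, 83034173 to 83052562, + strand) showed the reverse order of CD26 classes in CAFs. It had 138, 94.2 and 115 CPM in CD26- NFs and 130, 103 and 110 CPM in CD26+ NFs. CD26- CAFs ranged from 271 CPM over 718 CPM to 957 CPM, and CD26+ CAFs from 256 CPM over 341 CPM to 471 CPM. CAFs lay above NFs without overlap in both classes, and the 2 CAF classes overlapped. Loxl3 rose by 2.55 ± 0.29 (SE, adjusted p = 6.92e-07) on the log2 scale in CD26- and by 1.61 ± 0.27 (SE, adjusted p = 0.000113) in CD26+ CAFs. CD26+ CAFs were lower than CD26- CAFs by -0.96 ± 0.17 (SE, adjusted p = 0.000118), in 9 of 9 mice. As for Adamts2, the pericyte and smooth muscle markers were higher in the same CD26- CAFs, and their part in the result was not tested. Its exons share 535 bases with Htra2 on the opposite strand.

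Loxl4 (chromosome 19, 42593982 to 42612813, - strand) had 29.6, 35.8 and 20.3 CPM in CD26- NFs and 56.1, 76.9 and 50.2 CPM in CD26+ NFs. In CAFs its lowest, median and highest values were 13.3, 42.4 and 87.5 CPM in CD26- and 82.0, 167 and 189 CPM in CD26+ cells. CD26+ CAFs lay above CD26+ NFs without overlap, whereas CD26- CAFs spread around the CD26- NFs and their highest sample reached the lowest CD26+ CAF sample. Loxl4 rose by 1.36 ± 0.36 (SE, adjusted p = 0.00475) on the log2 scale in CD26+ CAFs, and its change in CD26- CAFs was 0.64 ± 0.34 (SE, adjusted p = 0.135). CD26+ exceeded CD26- CAFs by 1.82 ± 0.23 (SE, adjusted p = 1.9e-06), in 9 of 9 mice. In NFs the difference was 1.10 ± 0.41 (SE, adjusted p = 0.171), and 1.11 (adjusted p = 0.0202) with mouse as a replicate block.

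Over all members, CD26+ against CD26- CAFs called 9 members higher and 3 lower, where 19.0% and 19.8% of all genes were. One member passed the log2 limit of 2 upward (Pcolce2; 2.47% of all genes) and 1 downward (P3h2; 5.13% of all genes). The median was 0.14 for the members and 0.008 for all genes. Without overlap between the classes, 3 members were higher in CD26+ CAFs (3.88% of all genes) and 1 was lower (3.91% of all genes). In NFs this held for 4 members (9.78% of all genes) and 3 members (10.1% of all genes). In NFs 2 members were called higher and none lower, where 2.65% and 1.48% of all genes were. These were Bmp1 and P4ha3, the latter at 0.82 ± 0.22 (SE, adjusted p = 0.0399), a call that was lost with mouse as a replicate block (0.80, adjusted p = 0.0622) and under 12 other alternatives, control mouse 1 or 3 left out among them. The block called 1903 of 16601 genes in NFs. Among the members, Colgalt2, Pcolce2, Loxl4 and Bmp1 were then called higher and Plod1 lower (-0.70, adjusted p = 0.0327) in CD26+ NFs. Within the mice, 6 members were higher in CD26+ cells in 9 of 9 CAF mice (13.4% of all genes) and 2 were lower (12.8% of all genes). In the 3 control mice 9 members were higher in every mouse (24.9% of all genes) and 18 were lower (27.4% of all genes).

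**Figure D4:**
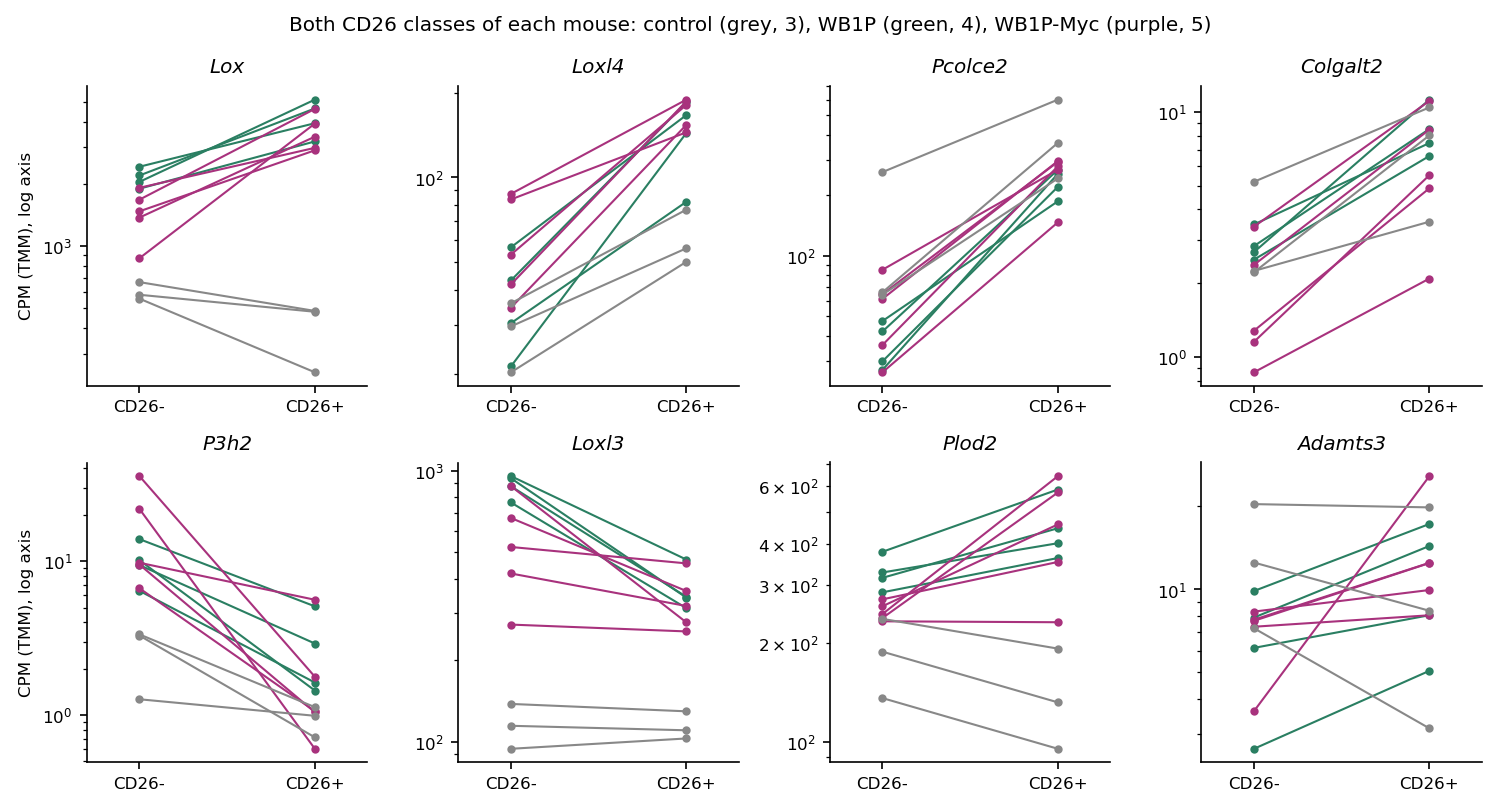
Level of 8 members in the CD26- and CD26+ cells of the same mouse (y axis, CPM with TMM scaling, log axis), 1 line per mouse, for 3 control, 4 WB1P and 5 WB1P-Myc mice. The lines of Lox rose in all 9 CAF mice and fell in the 3 control mice, those of P3h2 fell in every mouse, and those of Pcolce2, Colgalt2 and Loxl4 rose in every mouse.

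No member was called between WB1P-Myc and WB1P CAFs, in CD26- cells (0.494% of all genes called) or in CD26+ cells (0.0% of all genes called). At an unadjusted p under 0.05 there were 9 of 33 members and 2393 of 16601 genes in CD26- cells, and 0 members and 638 genes in CD26+ cells. The log2 fold changes were -0.99 to 0.87 and -0.47 to 0.28. P4ha2, named after its values were seen, had the largest change in CD26- CAFs. It was at 314, 346, 262, 270 and 359 CPM in the 5 WB1P mice and at 107, 148, 122, 235 and 170 CPM in the 5 WB1P-Myc mice. The groups did not overlap, and the nearest WB1P-Myc mouse was 1 of the 2 marked 8x8. The share of all genes without overlap was not counted for this comparison. The WB1P-Myc mice with 107 and 122 CPM had double- cells alone in the CD26- class, while all 5 WB1P mice had En1+ cells. Both of these WB1P-Myc mice stayed in when the 8x8 mice were left out. The tumor model was thus partly mixed with the populations sequenced, whose part was not tested. The change was -0.99 ± 0.24 (SE, adjusted p = 0.0628), with DESeq2's Wald test -1.005 (adjusted p = 0.00555), and without the 8x8 mice -1.31 (adjusted p = 0.0119). DESeq2 also called P4ha1 (-0.72, adjusted p = 0.0317), likewise named after its values were seen, and no member in CD26+ cells.

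By En1 lineage no member was called either. In CAFs the log2 fold changes of the members were -0.74 to 0.33 between En1+ and double- cells (0.0% of all genes called) and -0.55 to 0.24 between double+ and CD26+ cells (0.0193% of all genes called). At an unadjusted p under 0.05 there were 1 member and 635 of 15584 genes for the former, and 0 members and 634 genes for the latter. DESeq2 and the fit with mouse as a replicate block called no member in either.

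The substrates of these enzymes were covered by 11 fibrillar collagen genes. In CD26- CAFs 5 rose and 1 fell (20.3% and 20.9% of all genes), and in CD26+ CAFs 3 rose and 2 fell (20.1% and 21.1% of all genes). Col1a1, a chain of collagen I, rose in both, by 0.71 ± 0.25 (SE, adjusted p = 0.026) and 0.96 ± 0.25 (SE, adjusted p = 0.00503) on the log2 scale. Col3a1, the chain of collagen III, was not called in either, with -0.07 and 0.58, and was higher in CD26+ than in CD26- CAFs by 0.73 ± 0.16 (SE, adjusted p = 0.000726). Of 25 folding and export partners, 10 rose and 2 fell in CD26- CAFs and 14 rose and 3 fell in CD26+ CAFs. Among them Pdia3, a disulfide isomerase, rose by 0.59 and 0.91, and Sec24a, a coat protein, fell by 1.06 in both. Of 13 collagen turnover genes, 4 and 6 rose and none fell, led by the collagenase Mmp13 and the gelatinase Mmp9. Mmp13 had at most 1.70 CPM in any NF sample and a median of 640 CPM in the CD26- CAFs, against 62.6 CPM in those with CD26. Of 15 hypoxia response genes, 10 rose and 1 fell in CD26- CAFs and 12 rose and 1 fell in CD26+ CAFs, among them Slc2a1, a glucose transporter, by 1.63 and 1.72. Between WB1P-Myc and WB1P CD26- CAFs 2 of the 15 fell. Their medians of log2 fold changes in CD26- and CD26+ CAFs were 0.49 and 0.58 for the collagens, 0.26 and 0.46 for the partners, 0.39 and 0.36 for the turnover genes and 1.36 and 1.72 for the hypoxia genes, beside the 0.014 and -0.002 of all genes.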

How the data were processed

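RNA of sorted fibroblasts was sequenced in 44 libraries of 13 mice. The authors deposited a table of raw counts per gene. The submitters' processing notes name HISAT2 2.2.1 and GRCm38; the counting tool, its strand setting and the annotation are not given in the sources used here. The table held 55487 rows, and the 1 row without a gene, with 0 counts, was left out. Coordinates and merged exon lengths came from GENCODE M21, whose GRCm38 positions were the same for 54906 of 55226 matched gene IDs, and promoters from RefSeq.

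Counts were summed per mouse and CD26 class. Genes were filtered with filterByExpr, scaled by TMM and tested in edgeR 4.0.16 (R 4.3.3) with the quasi-likelihood test in 1 fit over all groups, with WB1P and WB1P-Myc weighted equally in CAFs and Benjamini-Hochberg adjustment over all genes. En1 lineage was compared over single libraries (15584 genes). Levels are TMM-scaled CPM. DESeq2 1.42.0, other scalings, no filter, only the groups compared, mouse as a replicate block, and leaving out each mouse or both 8x8 mice were alternatives. None of 63 pairs of libraries of a group agreed within sampling noise. Because the labels name the mouse, CD26 classes are paired: the deviations of the 12 pairs from their group means correlated with r of 0.237 to 0.668 (median 0.444). The main fit did not use this pairing, because the study methods name no block. The fit with mouse as a replicate block does use it. On simulated data, the test recovered 163 of 200 changed genes for CD26- CAFs against NFs (16081 genes), with 7 false calls. For CD26+ against CD26- it recovered 189 of 200 in CAFs with 13 false calls, and 162 of 200 in NFs with 15. For WB1P-Myc against WB1P CD26- CAFs it recovered 176 with 7 false calls, and for En1+ against double- CAFs 188 with 8. The planted changes were larger than those of most members, and smaller changes and mouse effects were not simulated.

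The members and lists were chosen with earlier results of these data known. Members were described in full where called with at least 1 CPM, up to 5 per direction in each comparison of CAFs with NFs and of the CD26 classes. Other members were accounted for by counts and ranges.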

Additional observations from a re-analysis of the deposited data

Results flagged for a closer look

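In 9 of 132 groups of 4 or 5 mice, 1 mouse stood apart from the others of its group for a member, by Dixon's criterion, where chance gives about 6.6 such groups. WB1P-Myc replicate 12, one of the mice marked 8x8, accounted for 7 of them. In its CD26+ cells P4hb was highest at 2118 CPM (next 1641 CPM), P3h2 at 5.62 CPM (1.78 CPM), P3h3 at 319.8 CPM (252 CPM), Serpinh1 at 2832 CPM (2015 CPM) and Adamts3 at 25.8 CPM (12.5 CPM), while Pcolce2 was lowest at 147 CPM (268.7 CPM). In its CD26- cells Adamts3 was lowest at 3.62 CPM (7.33 CPM). P4ha3 was highest in CD26- cells of WB1P replicate 7 at 376 CPM (274 CPM), and P3h1 in CD26+ cells of WB1P replicate 6 at 331 CPM (265 CPM).

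The CD26 difference of Lox differed between CAFs and NFs by 1.76 on the log2 scale (interaction, edgeR adjusted p = 0.00393).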

How the results depend on the processing

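Of 80 single-gene results that were printed, 45 kept their side of the threshold under every alternative. The cause of the changes was not tested. On library totals, members called lower were 3 in CD26- CAFs against NFs and 5 in CD26+ against CD26- CAFs, 1 was higher in NFs, and the CD26 difference of Bmp1 in CAFs was -0.004. Mean levels on library totals were 268.7 CPM for P4ha3 in WB1P CD26+, 270.6 CPM for Plod2 in WB1P-Myc CD26- and 532.7 CPM for Bmp1 in control CD26- cells. With only the groups compared, members called lower were 2 in CD26- and 1 in CD26+ CAFs against NFs, none was higher by CD26 in NFs (191 genes called in all), and 6 genes were called for WB1P-Myc against WB1P in CD26- cells and 1 for double+ against CD26+. Without the filter, 1 member was higher in NFs and 26 genes were called by Myc in CD26- cells. Without the 8x8 mice these were 1 and 49, with 1 member lower by Myc and 1 gene called for double+ against CD26+. DESeq2 called 411 genes (2 members lower) by Myc in CD26- cells, 9 in CD26+ cells, 726 for the interaction (2 members higher, 1 lower) and 8 for En1+ against double-. With mouse as a replicate block (the paired fit), 4 members were higher and 1 lower in NFs (1903 genes), 4 were higher for the interaction (992 genes), and 11 genes were called for En1+ against double-. Beyond the member calls given above, the block changed none. CAFs and NFs came from different mice, so no block was possible there, nor for WB1P-Myc against WB1P.

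Leaving out 1 mouse at a time, CD26- CAFs against NFs gave 13 to 19 members higher, 1 to 2 lower and 4881 to 7322 genes. CD26+ CAFs gave 17 to 23, 0 and 4557 to 7404. CD26+ against CD26- CAFs gave 7 to 11, 2 to 3 and 5461 to 6599, and NFs 0 to 2, 0 and 172 to 711. The interaction gave 1 to 2, 0 to 1 and 74 to 399, and WB1P-Myc against WB1P in CD26- cells 0, 0 to 3 and 9 to 230. In CD26+ cells and for En1+ against double- these were 0, and for double+ against CD26+ 1 to 3 genes and no member. With 3 control mice, differences in NFs and against NFs are the least precise.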
